A study of Rattus norvegicus with 12 samples.

Results

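Genes spanning more than 300 kb were examined in rat islet cells in which mt-tRF-LeuTAA, a small RNA cut from the leucine tRNA of the mitochondrial genome, had been silenced. A gene was taken as long when its annotated end lay more than 300 kb from its start on a nuclear chromosome, and 283 of the 13733 detected genes met this rule. The 6 anti-mt-tRF-LeuTAA and 6 anti-control libraries are total RNA of dispersed islets of 3-month-old Wistar rats, taken 72 h after lipofection with 30 pmol of an antisense oligonucleotide against the fragment or of a scrambled oligonucleotide. All rats were male and none carried a genetic modification, and islets of a single rat stand behind each replicate number. Because whole islets were dispersed, the libraries mix endocrine cells with other cell types, and fewer cells of a type cannot be told apart from less RNA per cell. The question asked was whether long genes changed with the silencing, and whether they changed more or less than shorter genes with the same level in anti-control cells.

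A gene of this size takes RNA polymerase II hours to read from start to end, and nearly all of that path is intron that splicing removes. Long genes therefore depend on the elongation machinery, on topoisomerases that relieve the twist ahead of the polymerase, and on factors that keep the polymerase from stopping at early poly(A) signals. In neurons and in endocrine cells this class is rich in adhesion molecules, ion channels, guidance receptors and scaffolds of the secretory machinery, and some of its largest members lie at fragile sites, which break when replication is slowed.

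Spans of the 283 long genes ran from 301 to 6361 kb (median 396 kb), against a median of 21.3 kb for the 13438 shorter nuclear genes, and 10 exceeded 1000 kb. Of the 283, 269 carried a gene symbol and 10 lay on the X chromosome. The anti-control level of the long genes ran from -3.94 to 11.68 log2 CPM (counts per 1e6 reads of the library, on a log2 scale), with a median of 3.81, against 4.49 for shorter genes. Most gene models in the class are single long genes, but 11 overlapped another listed gene on the same strand and 12 a listed gene on the opposite strand. Mycbp2, the longest at 6361 kb, covers 5 other listed genes on its strand, and Ighm (608 kb) is an immunoglobulin locus rather than a single transcription unit, so the span of such rows depends on the annotation. Just inside the limit were Akap13 (301 kb, log2 fold change -0.02), Jazf1 (301 kb, -0.17) and Adamts12 (302 kb, -0.56), and just outside it were Ndst4 (300 kb, -0.07), Wdr7 (300 kb, -0.28) and Atg10 (299 kb, -0.18).

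Promoter sequences are shown for 5 long genes on which the results below turn, 3 that were lower and 2 that were higher after silencing, since the start of a long gene is the only place where its own transcription can begin. They are RefSeq sequences of the GRCr8 assembly, 250 bases before to 50 bases after the annotated start, written 5′ to 3′ along the gene. Capitals mark the GC box (GGGCGG) and the cyclic AMP response element (TGACGTCA) on either strand, and overlapping matches run together. Fstl4 lies on the plus strand at chr10:37412038-37412337, Ptprn2 on the plus strand at chr6:143582318-143582617, Pcsk2 on the plus strand at chr3:151333688-151333987, Itga9 on the plus strand at chr8:127185039-127185338 and Dgki on the minus strand at chr4:66839741-66840040.
Fstl4: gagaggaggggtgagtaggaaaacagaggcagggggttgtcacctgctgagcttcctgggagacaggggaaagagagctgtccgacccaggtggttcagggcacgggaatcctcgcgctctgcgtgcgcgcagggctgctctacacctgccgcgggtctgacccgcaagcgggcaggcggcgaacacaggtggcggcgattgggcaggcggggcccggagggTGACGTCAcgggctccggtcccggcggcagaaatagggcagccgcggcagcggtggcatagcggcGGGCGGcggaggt
Ptprn2: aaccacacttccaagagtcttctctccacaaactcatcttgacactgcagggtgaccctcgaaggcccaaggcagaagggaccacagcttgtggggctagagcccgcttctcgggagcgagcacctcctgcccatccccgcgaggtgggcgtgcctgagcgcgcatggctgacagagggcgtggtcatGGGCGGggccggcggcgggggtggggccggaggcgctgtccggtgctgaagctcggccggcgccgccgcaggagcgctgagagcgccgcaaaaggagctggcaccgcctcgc
Pcsk2: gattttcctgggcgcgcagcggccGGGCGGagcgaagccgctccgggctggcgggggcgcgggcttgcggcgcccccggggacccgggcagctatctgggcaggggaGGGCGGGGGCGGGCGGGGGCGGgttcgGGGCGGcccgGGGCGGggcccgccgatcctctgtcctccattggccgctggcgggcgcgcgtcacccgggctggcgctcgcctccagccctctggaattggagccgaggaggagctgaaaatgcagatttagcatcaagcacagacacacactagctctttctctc
Itga9: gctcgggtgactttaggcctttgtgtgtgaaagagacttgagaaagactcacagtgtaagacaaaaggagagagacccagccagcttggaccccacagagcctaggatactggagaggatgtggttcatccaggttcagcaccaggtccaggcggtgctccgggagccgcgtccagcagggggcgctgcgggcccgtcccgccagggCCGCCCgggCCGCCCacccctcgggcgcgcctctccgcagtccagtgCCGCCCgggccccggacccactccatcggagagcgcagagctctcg
Dgki: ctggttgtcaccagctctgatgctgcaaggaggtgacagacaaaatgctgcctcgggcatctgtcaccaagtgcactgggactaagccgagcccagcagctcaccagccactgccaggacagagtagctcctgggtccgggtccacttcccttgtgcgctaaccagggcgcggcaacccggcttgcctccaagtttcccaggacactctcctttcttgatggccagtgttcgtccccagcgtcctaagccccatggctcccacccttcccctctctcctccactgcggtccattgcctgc

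The promoter of Pcsk2 held 7 GC boxes and that of Itga9 held 3, while Fstl4 and Ptprn2 had 1 each and Dgki 0. A GC box was found in 33.1% of the 33469 promoters of this length in the table. The cyclic AMP response element, present once in Fstl4, was found in 1.83%, and none of the 5 promoters held a TATA box (TATAAA, 14.2% of the table) or an E-box (CACGTG, 6.42%). GC content was 61.3% for Dgki and 66.7% for Itga9, and 69.0% for Ptprn2, 69.7% for Fstl4 and 73.3% for Pcsk2, against a median of 51.7% over the table. Only 175 of the 283 long genes (61.8%) had a promoter in the table, so promoter features of the class as a whole were not compared.

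After silencing of mt-tRF-LeuTAA the values of long genes lay slightly lower as a class, and a few scarce ones were much higher. Most single genes passed the test neither with nor without a block for the rat. The median log2 fold change of the 283 genes was -0.12, against -0.04 over all 13733 genes, and 61.8% of long genes had a value below 0, against 54.6% of shorter ones. Without a block for the rat, 14 long genes (4.95%) were called higher and 10 (3.53%) lower at an adjusted p of at most 0.05 (limma), against 10.9% higher and 4.65% lower among all genes. With the rat as a replicate block, 27 long genes (9.54%) were higher and 60 (21.2%) lower, against 17.6% and 17.7% of all genes. In both fits the share of long genes called higher was below that of all genes, and the share called lower lay nearer to its background.

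Called increases were larger than called decreases, but a gene listed with next to no anti-control reads could only be higher. The 14 genes called higher without the block had a median log2 fold change of 2.63 (0.33 to 5.96) and 8 of them stood below 0 log2 CPM in anti-control, whereas the 10 called lower had a median of -0.57 (-0.84 to -0.24) and stood between 2.42 and 9.71 log2 CPM. With the replicate block the sizes were closer, with a median of 0.62 (0.18 to 5.96) for the 27 called higher and -0.40 (-0.89 to -0.18) for the 60 called lower. At least 2-fold increases that passed the test were seen for 11 long genes, against 5.82% of all genes. Of these 11, 8 stood below 0 log2 CPM in anti-control and 3 at or above it. A 2-fold fall was seen for 0 long genes, against 0.0583% of all genes. The groups did not overlap for 7 long genes that were higher and 4 that were lower, against 7.92% and 2.27% of all genes. Long genes were higher in 6 of 6 rats in 25 cases (8.83%, against 17.3% of all genes) and lower in 6 of 6 in 54 cases (19.1%, against 16.6%).

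**Figure D1:**
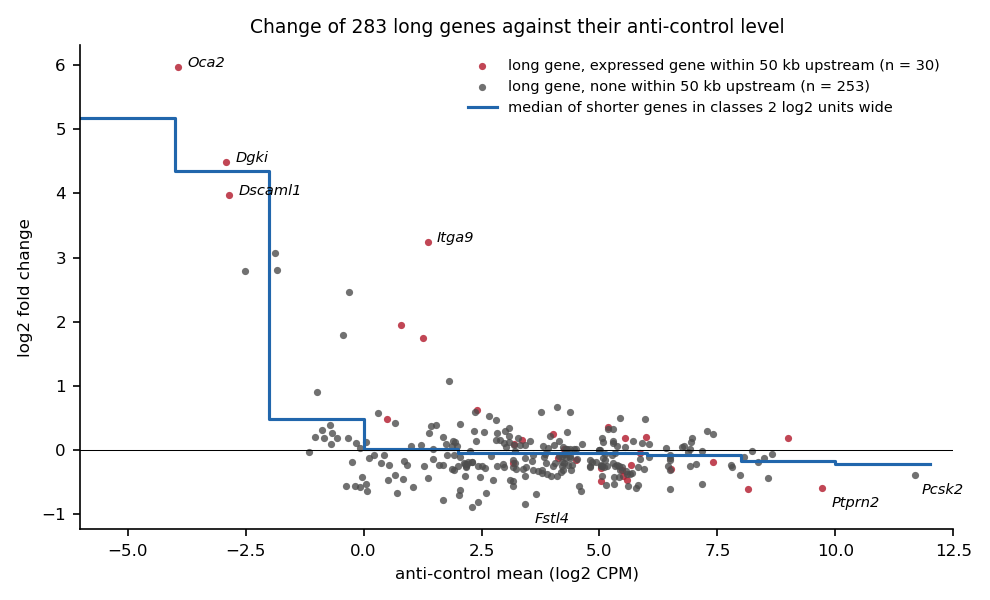
Log2 fold change (anti-mt-tRF-LeuTAA minus anti-control) of each of the 283 long genes against its anti-control mean in log2 CPM. Red points are the 30 genes with an expressed gene ending within 50 kb upstream, dark points the other 253, and the blue line is the median of shorter genes in classes 2 log2 units wide with at least 20 of them. The largest increases, Oca2 (5.96) and Dgki (4.48), lie at the low end of the level axis, and most points above 2 log2 CPM lie slightly below 0.

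At equal anti-control level, long genes remained lower than shorter genes by 0.12 on the log2 scale, with genes sorted into classes 2 log2 units wide and each class weighted by its number of long genes. With only genes at or above the 25th percentile of expression the difference was -0.08. Between 2 and 4 log2 CPM the median was -0.19 for 80 long genes and -0.04 for 2797 shorter genes, and between 4 and 6 log2 CPM it was -0.16 for 98 long and -0.05 for 4500 shorter genes. Between 6 and 8 log2 CPM the medians were closer, at -0.11 for 26 long and -0.08 for 2708 shorter genes, and between 8 and 10 the order turned, at -0.12 for 9 long and -0.18 for 436 shorter genes. With the replicate block, 21.3% of long and 11.7% of shorter genes were called lower between 2 and 4 log2 CPM, and 30.6% of long and 20.6% of shorter genes between 4 and 6. In the other classes the share called lower was not larger among long genes or barely so, with 2.27% of long and 4.03% of shorter genes between 0 and 2, 30.8% and 30.2% between 6 and 8, and 33.3% and 47.0% between 8 and 10. The shares called higher were 5% of long and 14.8% of shorter genes between 2 and 4, and 7.14% and 15.3% between 4 and 6.

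Genes with very few anti-control reads cannot be compared in this way, yet the difference of -0.12 includes the classes below 0 log2 CPM. Of the shorter genes, 59 of 59 below -4 log2 CPM in anti-control and 212 of 214 between -4 and -2 were called higher, as were 4 of 4 long genes between -4 and -2. A gene listed as detected with next to no reads in anti-control has to be higher after silencing, so calls at this level are given as values only. Between -2 and 0 log2 CPM the median was 0.18 for 21 long genes and 0.48 for 889 shorter genes. Among genes of this class without an expressed gene within 50 kb upstream, it was 0.18 for 21 long and 0.19 for 523 shorter genes. Of the 25 long genes below 0 log2 CPM, 3 had an expressed gene within 50 kb upstream and 22 did not, whereas 581 of the 1162 shorter genes had one. Without such a neighbour, 5 of 22 long genes (22.7%) and 108 of 581 shorter genes (18.6%) were called higher.

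The difference held the same sign in each rat but not the same size. Within rats, the equal-level difference was -0.04, -0.09, -0.06, -0.20, -0.14 and -0.31 for rats 1 to 6 (mean -0.14 ± 0.10 SD, n = 6). Rat 6 stood apart, with 71.7% of long genes lower in its anti-mt-tRF-LeuTAA library, against 52.3% to 61.5% in the other rats. Leaving out both libraries of rat 6, a choice made after the data were seen, gave a difference of -0.08, with 12 long genes higher and 4 lower when no block was used and 28 higher and 47 lower when it was. The shares of all genes called without rat 6 are not given, so these counts are values only. The long genes together took 1.31 ± 0.10% of listed reads in anti-mt-tRF-LeuTAA libraries and 1.43 ± 0.11% in anti-control libraries (SD, n = 6 each), a share that was smaller after silencing in each of the 6 rats. Pcsk2 alone made up 19.7 ± 2.04% of those reads after silencing and 22.5 ± 1.32% in anti-control, and without it the shares were 1.05 ± 0.06% and 1.10 ± 0.07%, with rat 5 in the other direction (1.14% after silencing and 1.12% in anti-control).

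**Figure D2:**
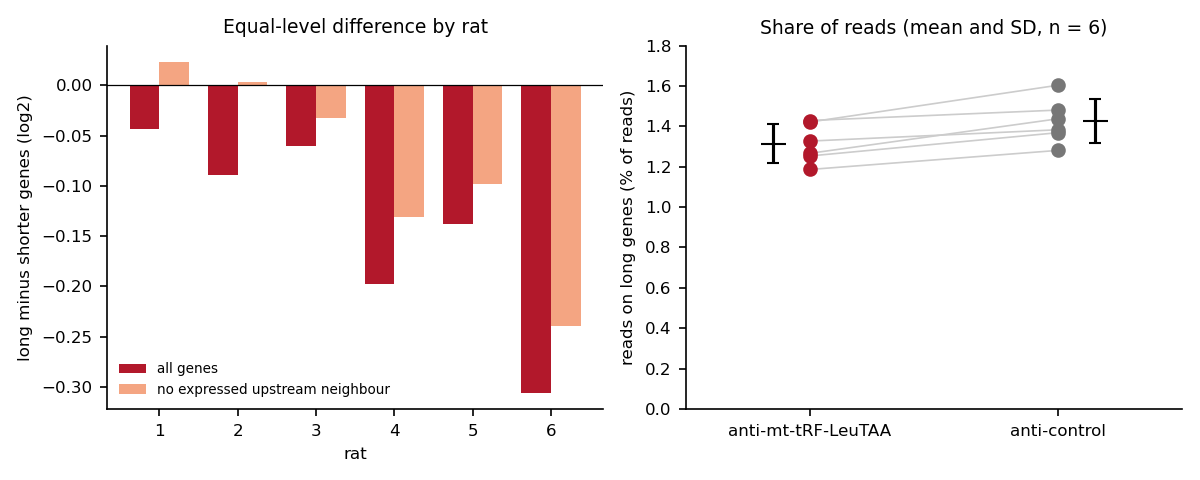
Left, median change of long genes minus that of shorter genes at equal anti-control level for each rat, on the log2 scale, for all genes and for genes without an expressed upstream neighbour. Right, reads on long genes in percent of listed reads, with points for libraries, grey lines joining libraries of a rat, and mean and SD (n = 6) beside them. The bars run from -0.04 in rat 1 to -0.31 in rat 6 for all genes.

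Long genes seldom lay close behind another expressed gene. An expressed gene ended within 50 kb upstream on the same strand for 30 of the 283 long genes (10.6%) and for 36.6% of shorter genes. Here a gene counted as expressed at or above 2.42 log2 CPM, the 25th percentile of the mean over all libraries. Among genes with such a neighbour, 6 of 30 long genes (20%) and 980 of 4915 shorter genes (19.9%) were called higher without the block. Among genes without it, 8 of 253 long genes (3.16%) and 500 of 8523 shorter genes (5.87%) were. For lower calls with the replicate block, genes without a neighbour gave nearly equal shares. These were 51 of 253 long genes (20.2%) and 1658 of 8523 shorter genes (19.5%). Among genes with a neighbour, 9 of 30 long genes (30%) and 713 of 4915 shorter genes (14.5%) were called lower.

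The equal-level difference was -0.08 among genes without an expressed upstream neighbour and 0.12 among the few with such a neighbour. By rat, the difference among genes without a neighbour was 0.02, 0.00, -0.03, -0.13, -0.10 and -0.24 for rats 1 to 6, so it lay near 0 in rats 1 to 3 and below 0 in rats 4 to 6. Its mean of -0.08 ± 0.10 (SD, n = 6) was smaller than its spread between rats.

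The median change was lower in the classes from 300 to 1000 kb than in shorter ones. In the few genes above 1000 kb this depended on whether genes with an expressed upstream neighbour were included. Over all genes the median was -0.03, -0.04 and -0.02 for genes of up to 10, 10 to 30 and 30 to 100 kb, -0.06 for 100 to 300 kb, -0.12 for 300 to 500 kb, -0.13 for 500 to 1000 kb and -0.05 for the 10 genes above 1000 kb. With the replicate block, genes called higher made up 18.3% of those up to 10 kb, 15.2% of those from 100 to 300 kb, 9.90% of those from 300 to 500 kb, 8.45% of those from 500 to 1000 kb and 10% of those above. Genes called lower made up 16.2%, 19.1%, 20.3%, 23.9% and 20% of the same classes. Among genes without an expressed upstream neighbour, the share called higher did not decline below 300 kb, with 10.6% up to 10 kb, 11.4% from 10 to 30 kb, 12.8% from 30 to 100 kb and 12.3% from 100 to 300 kb. It was 6.67% from 300 to 500 kb and 7.81% from 500 to 1000 kb. Among the 283 long genes, Spearman's rank correlation between span and log2 fold change was -0.07, a description across genes that share the same 12 libraries.

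**Figure D3:**
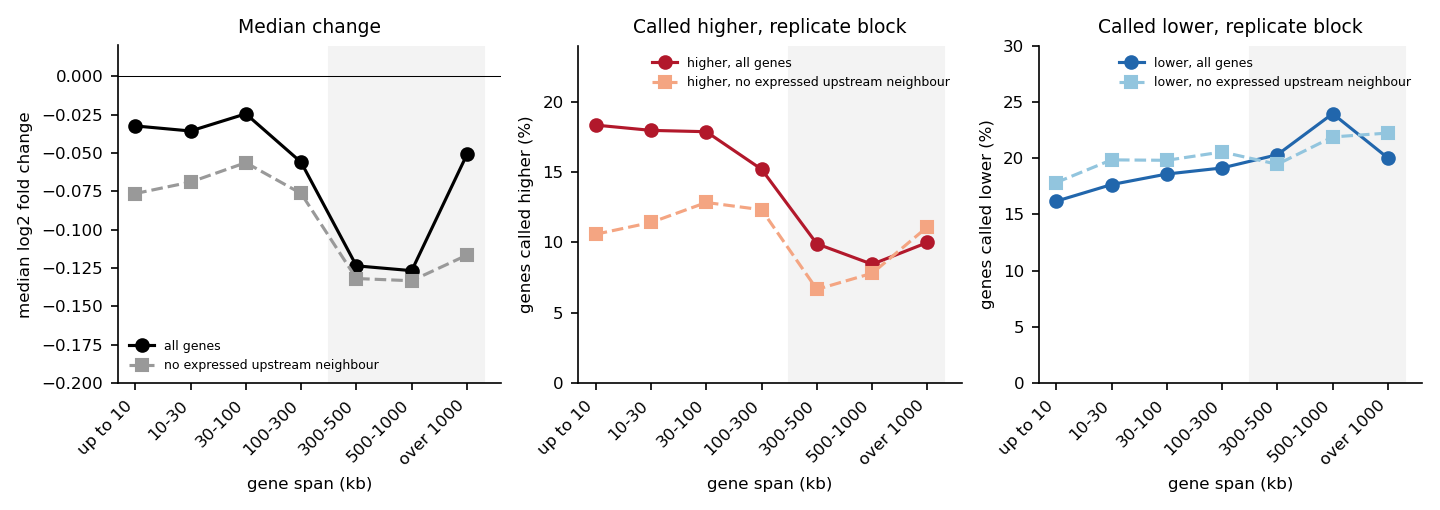
Genes grouped by annotated span in kb, with long genes on the grey ground. From left to right, the median log2 fold change, the percentage called higher and the percentage called lower with the replicate block, for all genes (solid lines) and for genes without an expressed upstream neighbour (dashed lines). Between genes of up to 10 kb and those of 500 to 1000 kb, the solid lines show a smaller share called higher with longer span (18.3% against 8.45%) and a larger share called lower (16.2% against 23.9%), while the dashed line for higher calls does not decline below 300 kb. For lower calls the dashed line is flatter (17.8% against 21.9%).

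The counts of each role list below stand against 10.9% higher and 4.65% lower among all genes without the block, and 17.6% and 17.7% with it. Among cell adhesion genes few members passed the test. Nrxn3 (1934 kb), a presynaptic receptor, had -0.11, 0.82 and 2.31 log2 CPM (lowest, median and highest library) after silencing, against 1.05, 1.79 and 2.21 in anti-control. The groups overlapped widely, and its log2 fold change of -0.78 passed only with the replicate block (adjusted p = 0.0337, against 0.205 without it). Dscaml1, an immunoglobulin-type adhesion molecule, was among the scarce genes that were higher. Of the 12 long genes of synaptic and immunoglobulin-type adhesion, 1 rose and 1 fell without the block, with a median of -0.24. Of the 29 listed genes of this kind at any span, 2 rose and 2 fell.

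The cell junction gene Ctnnd2 (chromosome 2, 83393282 to 84094315 of Rnor_6.0), which encodes delta-catenin, a partner of cadherins at junctions of neurons, had 5.38, 6.03 and 6.24 log2 CPM after silencing, against 6.10, 6.52 and 6.72 in anti-control. Silenced libraries lay below their anti-control partner in 6 of 6 rats and the groups overlapped at their edges. It fell by 0.61 on the log2 scale (SE 0.16, adjusted p = 0.0235, and 0.0548 without anti-control replicate 4). Cdh22, a classical cadherin, fell by 0.40 (SE 0.12, adjusted p = 0.0458), and 9 of 12 omissions of a single library removed the call (highest adjusted p 0.0995, anti-control replicate 3 left out). Cdh22 overlaps 2 other listed genes on its strand. Of the 6 long cadherins and catenins 2 fell and 0 rose, and of the 21 listed at any span 4 fell and 0 rose.

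All 10 long axon guidance genes had negative values, with a median of -0.38, and 1 of them passed the test without the block. Robo1 (chromosome 11, 9642365 to 10143317), a receptor for Slit ligands that, with Robo2, shapes islet architecture in mice, had 7.36, 7.55 and 7.80 log2 CPM after silencing and 7.66, 8.0 and 8.27 in anti-control. It fell by 0.39 (SE 0.10, adjusted p = 0.0219, and 0.0531 without anti-mt-tRF-LeuTAA replicate 4) and was lower in 6 of 6 rats. With the replicate block Robo2, Sema5a and Plxdc2 also passed (adjusted p = 0.0102, 0.00448 and 0.0195), and their log2 values differed by -0.43, -0.54 and -0.37. Robo2 is the paralog of Robo1, and Sema5a is a guidance semaphorin. Their spread between rats was wider than their change, as in Robo2, whose libraries ran from 7.37 to 8.49 after silencing and from 7.84 to 9.07 in anti-control. Within rats, which is what the block compares, differences ran from -0.83 to 0.11 for Robo2. They ran from -0.91 to -0.06 for Sema5a and from -0.67 to -0.10 for Plxdc2. The list's 22 measured members of any span gave 1 lower (4.55%) and 0 higher, and 6 lower (27.3%) and 0 higher with the block, so that the count without the block was at the share of all genes.

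Pcsk2 and Ptprn2, which encode proteins of the secretory granule, have the most reads of all long genes over all libraries. Ptprn2 (chromosome 6, 144384773 to 145133042) encodes phogrin, a transmembrane protein of the insulin granule related to receptor tyrosine phosphatases. It had 8.63, 9.19 and 9.46 log2 CPM after silencing, against 9.37, 9.71 and 10.11 in anti-control. The groups touched only at their edges, and each rat's silenced library was the lower. Ptprn2 fell by 0.59 (SE 0.17, adjusted p = 0.0340), but 7 of 12 omissions of a single library removed the call (highest adjusted p 0.0786, anti-mt-tRF-LeuTAA replicate 4 left out), as did quantile normalization. With the replicate block its adjusted p was 0.000617. The expressed gene Ncapg2 ends 20.8 kb upstream of Ptprn2 on the same strand and rose by 0.82. Of the 6 long receptor-type tyrosine phosphatases, 1 fell and 0 rose, with a median of -0.07.

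Pcsk2 (chromosome 3, 137618898 to 137925605), the prohormone convertase that matures proinsulin and proglucagon, was the long gene with the most reads. It had 10.86, 11.37 and 11.64 log2 CPM after silencing and 11.40, 11.62 and 12.02 in anti-control. Its log2 fold change of -0.39 (SE 0.17) did not pass without the block (adjusted p = 0.148) and passed with it (0.0127), and it was negative in 6 of 6 rats. Cadps, which primes dense-core granules for release, behaved alike in the tests (log2 fold change -0.53, adjusted p = 0.170, and 0.00377 with the block). Rims2, a scaffold of the release site, had a positive value of 0.32 (adjusted p = 0.213, and 0.0104 with the block).

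**Figure D4:**
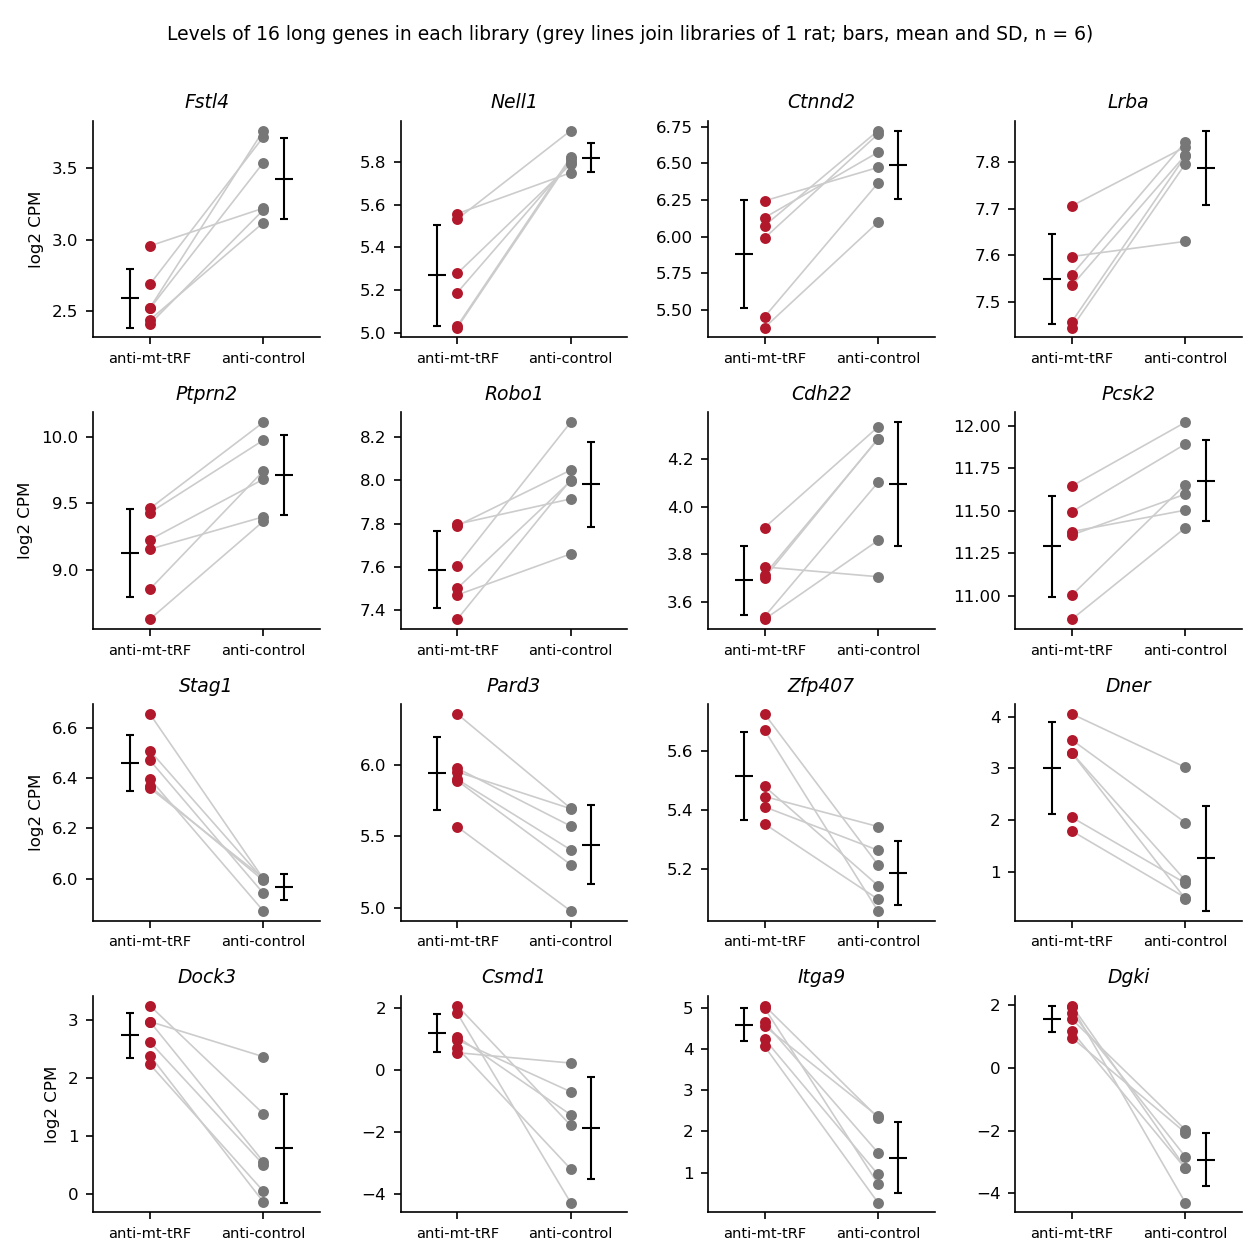
Level in log2 CPM of 16 long genes in each anti-mt-tRF-LeuTAA library (red, left) and anti-control library (grey, right). Grey lines join the libraries of a rat, and bars give the mean and SD (n = 6). The vertical axes differ between genes and do not start at 0. The 8 genes of the upper rows were lower after silencing in most or all rats, and the 8 of the lower rows were higher in 6 of 6.

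Without the block, the decreases with the smallest adjusted p were those of a pair of secreted proteins and a DNA repair subunit, none of which is in a role list. Fstl4 (chromosome 10, 38104558 to 38532196), a follistatin-like protein, had 2.41, 2.52 and 2.96 log2 CPM after silencing, against 3.12, 3.38 and 3.76 in anti-control, so that the groups did not overlap. It fell by 0.84 (SE 0.15, adjusted p = 0.00177). Nell1 (chromosome 1, 105349069 to 106218958), a secreted protein with epidermal growth factor-like repeats known from bone, had 5.02, 5.23 and 5.56 log2 CPM after silencing and 5.75, 5.81 and 5.95 in anti-control. These ranges were also apart, and Nell1 fell by 0.55 (SE 0.10, adjusted p = 0.00175). Babam2, a subunit of the BRCA1-A complex, fell by 0.32 (SE 0.07, adjusted p = 0.00538) with separate groups, and was named after its values had been seen. Samd12 fell by 0.81 (SE 0.23, adjusted p = 0.0312), and 7 of 12 omissions removed its call (highest adjusted p 0.0717, anti-mt-tRF-LeuTAA replicate 4 left out).

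Signalling, scaffold and transcription factor genes moved in both directions. Of the 28 long genes of the cytoskeleton, spectrin and scaffold list, 2 rose (7.14%) and 1 fell (3.57%) without the block, and 6 rose (21.4%) and 5 fell (17.9%) with it, near the shares of all genes. Lrba, a vesicle trafficking scaffold, fell by 0.24 (SE 0.06, adjusted p = 0.0154). For Lrba, quantile normalization and leaving out rat 6 each removed the call. Pard3, a polarity protein of tight junctions, rose by 0.50 (SE 0.14, adjusted p = 0.0321). Pard3 had 5.57, 5.92 and 6.35 log2 CPM after silencing and 4.98, 5.49 and 5.69 in anti-control, and 8 of 12 omissions removed its call (highest adjusted p 0.0677, anti-control replicate 4 left out). Of the 16 long kinase, lipid and cyclic nucleotide signalling genes, 1 rose and 0 fell without the block, and 6 fell with it, among them Plce1, Camk1d and Cdk14 (-0.67, -0.48 and -0.41 on the log2 scale, adjusted p = 0.00349, 0.0115 and 0.00226). Of 8 long GTPase regulators 1 rose and 0 fell, of 5 RNA-binding proteins 0 passed without the block, and Msi2 passed with it (-0.24, adjusted p = 0.0116).

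Of the 25 long transcription factor and chromatin genes, 0 passed without the block, and with it Bnc2 and Nr3c2 fell and Sox6 rose. Glis3, a factor needed for beta-cell development and for insulin gene activity in mice, had 6.03, 6.34 and 6.64 log2 CPM after silencing and 5.99, 6.5 and 6.94 in anti-control. The groups overlapped almost fully, and the log2 fold change of -0.16 did not pass (SE 0.16, adjusted p = 0.575). Arid1b, a subunit of the BAF chromatin remodeller, was at 0.06 (adjusted p = 0.810).

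Among channels, receptors and sorting proteins few members changed. Kcnma1, the pore of the large-conductance calcium-activated potassium channel, had 6.98, 7.17 and 7.31 log2 CPM after silencing and 6.90, 7.17 and 7.36 in anti-control. Its log2 fold change was -0.02 (SE 0.09, adjusted p = 0.929), and that of Cacna2d1, the alpha2delta subunit of calcium channels, was -0.12 (SE 0.14, adjusted p = 0.636). Of 15 long channel genes 1 rose and 0 fell without the block, and with it Kcnip1 and Dpp6, auxiliary subunits of voltage-gated potassium channels, also fell (-0.52 and -0.38, adjusted p = 0.00674 and 0.0109). The median of the channel list was 0.09 on the deposited scale and -0.16 after quantile normalization. Of the 6 long genes in the list of glutamate, GABA and acetylcholine receptors, which also holds the sorting receptors Sorcs1 and Sorcs2, 0 passed in either fit. Gabbr2, a GABA-B receptor subunit, stood at -0.04, Sorcs2 at -0.08 and Sorcs1 at -0.58 (SE 0.43, adjusted p = 0.426).

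Matrix genes carried negative values that passed only within rats. Of 16 long genes for matrix proteins, proteoglycans and their enzymes, 0 fell and 1 rose without the block, and the block brought 5 decreases, with a median of -0.28 over the list. The 5 were Galnt13 and Galnt18, which start O-glycans, the basement membrane protein Hmcn1, the metalloprotease Adam12 and Ltbp1, which stores TGF-beta in the matrix. Adam12 had 3.77, 5.24 and 6.46 log2 CPM after silencing and 4.95, 5.88 and 6.77 in anti-control, a spread between rats that exceeded its difference of -0.60 (adjusted p of 0.426 without the block, 0.00291 with it). Within rats its differences ran from -1.18 to -0.27. The summed level of 7 stromal markers was 462 to 2971 CPM after silencing and 1162 to 4388 CPM in anti-control, lower in 5 of 6 rats, with Col1a1, Col3a1, Dcn and Pdgfrb among those measured and 2 called lower with the block. The part of stromal cells in the values of these genes was not tested.

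**Figure D5:**
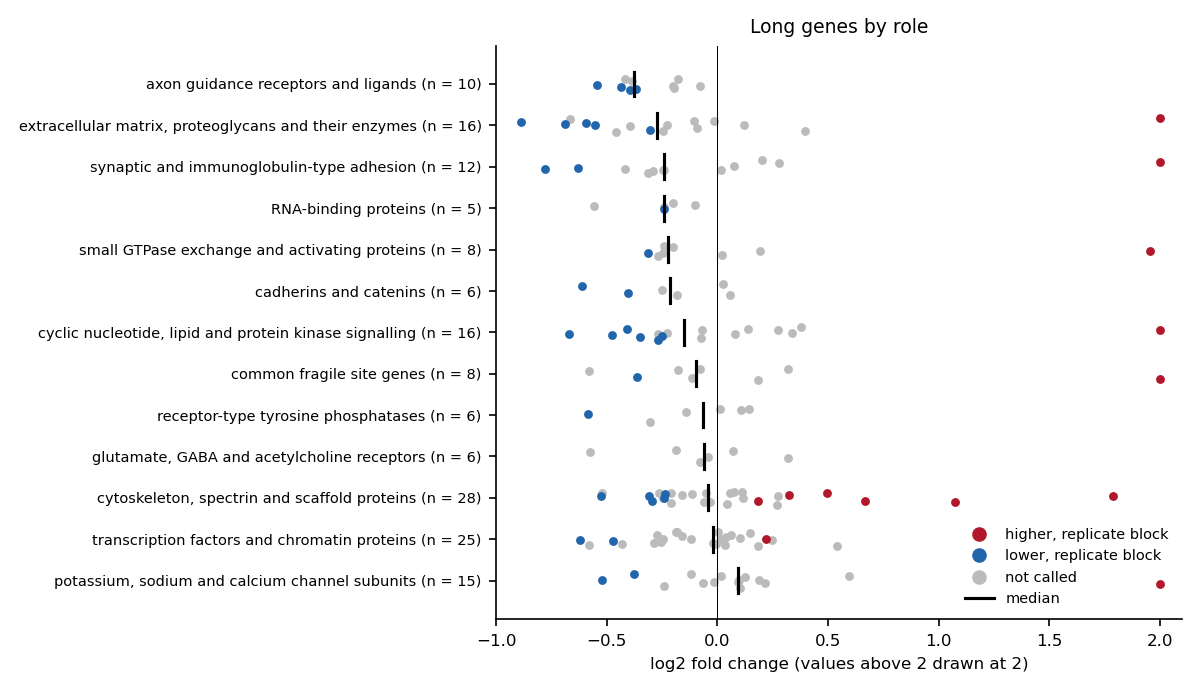
Log2 fold change of the long genes in each of 13 role lists, with values above 2 drawn at 2. Red and blue points passed as higher or lower with the replicate block, grey points did not pass, and black bars are medians. The medians run from -0.38 for axon guidance genes to 0.09 for channel subunits.

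The long genes that rose most were scarce in anti-control, and 6 of the 14 called higher lay behind an expressed gene. Oca2, a melanosome membrane protein of pigment cells, was named after its values were seen. It had 56 to 124 reads per library after silencing, 486 in all, against 0 to 1 in anti-control, 2 in all, which gives a ratio of 249. The 95% exact interval of this ratio, 68.5 to 2059, pools the libraries of a group and holds counting error only. It leaves out the spread between rats and is no support for the direction. Listed with so few anti-control reads, Oca2, like Dgki, Dscaml1 and Ano3, had to be higher after silencing, so no test is given for them. Herc2 ends 25.7 kb upstream on the same strand, and its own level was 8.32 ± 0.13 log2 CPM after silencing and 8.11 ± 0.18 in anti-control (SD, n = 6 each).

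Dgki (chromosome 4, 64374342 to 64831473), a diacylglycerol kinase of neurons, had 0.97, 1.65 and 1.99 log2 CPM after silencing, against -4.29, -3.00 and -1.97 in anti-control, where the lowest value stands for 0 reads. The libraries held 39 to 77 reads after silencing and 0 to 4 in anti-control, with 349 reads after silencing and 12 in anti-control in all. Creb3l2 ends 37.6 kb upstream. Itga9 (chromosome 8, 127271289 to 127572988), the alpha9 integrin subunit that binds tenascin and osteopontin, had 4.08, 4.61 and 5.07 log2 CPM after silencing and 0.27, 1.22 and 2.37 in anti-control. Its 9.49-fold increase (3.25 on the log2 scale, SE 0.36) had an adjusted p of 2.67e-05, with Golga4 ending 22.8 kb upstream at a level that changed by -0.09. Dscaml1 had 286 reads after silencing and 15 in anti-control, with 11 to 65 reads per library after silencing and 0 to 6 in anti-control, and Fxyd6 ends 34.4 kb upstream.

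Dock3, an exchange factor for Rac in neurons, and Dner, a transmembrane protein related to Notch ligands, were less scarce. Dock3 had 2.23, 2.80 and 3.25 log2 CPM after silencing and -0.14, 0.53 and 2.37 in anti-control, with the highest anti-control library inside the range after silencing (log2 fold change 1.95, SE 0.39, adjusted p = 0.00376, Mapkapk3 30.2 kb upstream). Dner had 1.79, 3.3 and 4.05 after silencing and 0.48, 0.81 and 3.02 in anti-control (log2 fold change 1.74, SE 0.50, adjusted p = 0.0335, Trip12 13.8 kb upstream). For Dner 8 of 12 omissions removed the call (highest adjusted p 0.0728, anti-control replicate 4 left out). The upstream genes of these 6 had log2 fold changes from -0.38 to 0.51, and 0 of them passed without the block, while with it Herc2 and Mapkapk3 were higher (adjusted p = 0.0179 and 0.0155) and Creb3l2 lower (0.0093). In a table of reads per gene, RNA that starts in the upstream gene and continues into the next would be counted for the next gene, and which promoter these reads came from was not tested.

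The other 8 genes called higher had no expressed gene within 50 kb upstream. Csmd1, a membrane protein with complement-control domains that lies at a human fragile site, rose by 3.07 (SE 0.66, adjusted p = 0.00669), with 28 to 82 reads per library after silencing and 0 to 24 in anti-control. Mtus2, a microtubule-binding protein, rose by 1.79 (adjusted p = 0.00965), and with quantile normalization it missed the threshold. Ano3, of the anoctamin family, differed by 2.80, with 3 to 73 reads per library after silencing and 0 to 12 in anti-control. Its anti-control mean of -2.50 log2 CPM lay between -4 and -2, so Ano3 is given as values only. Csmd1 and Ugt2a3 lay just above that range, at -1.87 and -1.83 log2 CPM. Ugt2a3, named after its values were seen, rose by 2.80 (adjusted p = 0.0261, and up to 0.062 when anti-mt-tRF-LeuTAA replicate 4 was left out), but its 427 kb row overlaps another listed gene on its strand and belongs to a family of close copies, so its reads are uncertain. The gene AABR07053650.1, which has no symbol, rose by 2.47.

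At moderate level 2 long genes rose with little spread. Stag1 (chromosome 8, 108958046 to 109342738), a subunit of cohesin, had 6.36, 6.43 and 6.65 log2 CPM after silencing, against 5.87, 6.00 and 6.00 in anti-control. The groups did not overlap, and it rose by 0.49 (1.41-fold, SE 0.06, adjusted p = 6.15e-05). Zfp407, a zinc finger protein, had 5.35, 5.46 and 5.72 after silencing and 5.06, 5.18 and 5.34 in anti-control, again without overlap, and rose by 0.33 (SE 0.08, adjusted p = 0.0139). Both passed whichever single library was left out.

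The 5 longest genes with a symbol showed no common direction. Mycbp2, an E3 ubiquitin ligase of axons, was at 0.29 and passed only with the block (adjusted p = 0.111, and 0.00572 with it). Dmd (2233 kb), the dystrophin gene, had 3.05, 3.28 and 3.63 log2 CPM after silencing and 3.06, 3.37 and 3.80 in anti-control, and differed by -0.12 (SE 0.16, adjusted p = 0.706), and Lrrc4c (1398 kb), a netrin-G ligand, was at -0.23 (adjusted p = 0.781). Utrn, the homologue of Dmd, was among the 5 long genes with the most reads and stood at -0.06 (adjusted p = 0.889). Macf1, a linker of actin and microtubules that is also among these 5, passed only with the block (0.18, adjusted p = 0.177, and 0.0306 with it). Of the 8 long genes at human fragile sites, Csmd1 rose and 0 fell without the block.

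Genes of the elongation machinery, which act on every long gene, moved in both directions, with the block in shares near those of all genes. Of 46 measured genes for elongation factors, early termination control and topoisomerases, 8 rose (17.4%) and 2 fell (4.35%) without the block, against 10.9% and 4.65% of all genes. With it 9 rose (19.6%) and 7 fell (15.2%), against 17.6% and 17.7% of all genes. Pcf11, which releases the polymerase at poly(A) sites, rose by 1.34 (adjusted p = 4.6e-06). The elongation kinase Cdk13, the cyclin Ccnt1 and the elongation factor Iws1 rose by 0.32, 0.79 and 0.35 (adjusted p = 0.000453, 0.0079 and 0.0117). The 2 that fell without the block were Hexim1 (-0.64, adjusted p = 0.0134) and Snrnp70 (-0.44, adjusted p = 0.0318). With the block Ctr9, Top3b, Sfpq, Supt5h and Top2a were lower as well. The genes that fell were named after their values had been seen. None of these genes spans more than 300 kb. Their part in the values of long genes was not tested.

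Listed reads summed to 16.4 to 20.3 M per anti-mt-tRF-LeuTAA library and 17.6 to 23.4 M per anti-control library, and a single read stood for 0.045 to 0.059 CPM. The islet label was checked against markers. Of 8 beta-cell markers 7 were measured, 1 was called lower and 2 were with the block, and the summed level of 5 ductal markers was 261 to 348 CPM after silencing and 299 to 469 CPM in anti-control, lower in 6 of 6 rats. Of 8 acinar markers only 3 were measured, and 0 of these were called. With the block, 2 of 6 measured endothelial markers were higher and 0 lower, and of 8 macrophage markers 1 was higher and 2 were lower. No marker of alpha, delta and PP cells or of Schwann cells and neurons was called in either fit. Levels are not compared between genes, since no transcript length was used.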

How the data were processed

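Total RNA of 6 anti-mt-tRF-LeuTAA and 6 anti-control islet cell samples was sequenced from stranded libraries. The authors deposited a table of log2 CPM values per detected gene, with gene positions on Rnor_6.0. Tools named by the submitters' notes on processing, with no roles, are edgeR 3.30.3 and limma 3.44.3 under R 4.0.3, HTSeq 0.9.1, STAR 2.5.3a and cutadapt 1.8. The strand setting of the counting was not stated there. As deposited, the log2 values came back as whole reads with a prior count of 1 (largest deviation 5.42e-08 reads), and -4.29 stands for 0 reads. Columns of the authors' own fold changes and p-values were not used, nor were their lists of selected genes. The small RNA that was silenced is not in this table and was not analysed here.

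Differences were fitted with limma 3.58.1 in R 4.3.3 (intensity trend, no block) over all 13733 genes, and p-values were adjusted by Benjamini-Hochberg. A call is an adjusted p of at most 0.05. The script was tested on simulated data. The fit without the block leaves out the pairing of libraries by rat. An alternative fit took the rat, given by the replicate number, as the block, and called 2412 genes higher and 2431 lower. The study reports the same counts of raised and lowered genes. The study states that each replicate is islets of a single rat, and same-numbered libraries deviated together (correlations 0.47 to 0.76, with 6 of 6 anti-mt-tRF-LeuTAA and 5 of 6 anti-control libraries closest to their own number), so the numbers pair the samples. Other alternatives were quantile normalization, median centring, a prior of 5 reads, limma-voom, no trend, a filter at the 25th percentile, spans above 200 or 500 kb, other classes of shorter genes, genes without an expressed upstream neighbour, and leaving out each library.

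Genes were named by rule, as the 8 largest and 8 smallest called changes at 0 log2 CPM or more, the 5 longest, the 5 with the most reads, up to 3 of each role list, a set of islet genes, the 3 genes on either side of 300 kb and up to 4 elongation genes. Genes given with values of the block fit beside these were chosen after their values were seen. The long genes, the role lists and the marker lists were chosen with earlier results of these data known. Some genes are not reported here.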

Additional observations from a re-analysis of the deposited data

Results flagged for a closer look

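A library or rat far from the other 5 of its group was found in 4 of 89 groups of 6 values examined, and chance alone gives about 1 in 20. Jazf1, a zinc finger gene, had a lowest anti-mt-tRF-LeuTAA library at 2.86 log2 CPM, with the next at 3.42. Lrba had a lowest anti-control library at 7.63 log2 CPM, with the next at 7.80. Nell1 had a highest anti-control library at 5.95 log2 CPM, with the next at 5.82, and its groups were apart with or without that library. The median change of long genes was lowest in rat 6, at -0.24, with the next rat at -0.12.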

How the results depend on the processing

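The median change of long genes and their difference from shorter genes at equal level stayed negative in every alternative run, between -0.17 and -0.08 and between -0.17 and -0.07 when single libraries were left out. The counts of called long genes moved more, with 10 to 15 higher and 5 to 12 lower when single libraries were left out (5 without anti-mt-tRF-LeuTAA replicate 4 and 6 without anti-control replicate 6). The replicate block, which pairs libraries of a rat, gave 27 higher and 60 lower. Quantile normalization gave 20 lower, 12 higher and a median of -0.23, with the median of all genes at -0.07 against -0.04 as deposited. Testing genes at or above the 25th percentile left 4 higher. Genes without an expressed upstream neighbour gave 6 higher and 6 lower, and 49 lower with the replicate block. Leaving out both libraries of rat 6 gave 4 lower, and 28 higher and 47 lower with the replicate block. Spans above 200 kb gave 35 higher and 23 lower, and spans above 500 kb gave 1 higher, over more and fewer genes. Apart from the replicate block, whose shares over all genes are given above, the shares of all genes called under these alternatives are not given. These counts therefore do not tell whether long genes moved or calls among all genes did. Other causes of these shifts were not tested.

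Signs turned only for genes near 0 that were not called. With quantile normalization the Akap13 log2 fold change was 0.12, the Cacna2d1 log2 fold change 0.025, the Kcnma1 log2 fold change 0.053 and the Utrn log2 fold change 0.082. Without rat 6, with and without the block, Akap13 was at 0.011 and Kcnma1 at 0.0058. With single libraries left out, values ran from -0.042 to 0.022 for Akap13, -0.011 to 0.13 for Arid1b, -0.21 to 0.13 for Gabbr2, -0.070 to 0.023 for Kcnma1, -0.15 to 0.036 for Sorcs2 and -0.16 to 0.070 for Utrn. Scarce genes rest on few reads, and a difference there smaller than the spread between rats was not detectable at this depth.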
